A study of Mus musculus with 12 samples.

Results

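Loss of the transcription factor Ets1 was examined in cultured mouse aortic endothelial cells by setting the 3 arrays titled as Ets1 null (Ets1KO) against the 3 arrays titled as wild type (WT), 6 of the 12 columns of values in the series. The WT cells had the genotype Ets1+/+; Ets2+/+ and the Ets1KO cells Ets1-/-; Ets2fl/fl. Both received a lentivirus that carries eGFP without Cre, so Ets2 was floxed but not deleted in the Ets1KO cells. All cells came from the aorta of mice of 4 weeks of age. The floxed Ets2 alleles were in every Ets1KO array and in no WT array, so their effect and that of Ets1 loss cannot be told apart. The fit also holds Ets2KO (Ets1+/+; Ets2fl/fl) and the arrays labelled DKO (Ets1-/-; Ets2fl/fl), both infected with an eGFP and Cre virus. The labels do not say which part of Ets1 the Ets1-/- genotype lacks. Every probe set with 1 gene symbol was analysed, 18824 probe sets of 11015 genes, on the log2 scale as deposited.

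Ets1 is the founding member of the ETS family, whose proteins bind DNA at a GGAA core through a shared winged helix-turn-helix domain. In endothelial cells ETS factors sit at the enhancers of many lineage genes, and Ets1 is known for its part in angiogenesis, in matrix protease expression and in the response of the vessel wall to inflammatory signals. Ets2 is its closest relative and can bind the same sites.

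The arrays were compared before the genes. The 6 array medians were 9.05 to 9.15, and the median gene differed by 0.01 between Ets1KO and WT. The median standard deviation of a probe set was 0.25 among WT arrays and 0.19 among Ets1KO arrays. WT replicate 3 was the WT array farthest from the group median in 54.1% of probe sets, and Ets1KO replicate 1 was the farthest of its group in 42.1%. WT replicate 1 had the Y-linked transcripts Eif2s3y at 9.37 and Kdm5d at 7.94 and the X-inactivation RNA Xist at 7.26. The other 5 arrays had Eif2s3y at 3.12 to 3.33 and Xist at 11.45 to 13.52. The groups are therefore not matched for sex-linked transcripts, and the part of this in the results was not tested, apart from fits without WT replicate 1.

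The labelled cell type was checked against 13 endothelial markers, of which 4 (Kdr, Flt1, Eng and Cd34) were among the probe sets used here. Kdr, the main VEGF receptor, lay between 7.11 and 7.60 in the 6 arrays. Flt1, the other VEGF receptor, lay between 7.44 and 8.58, so both were below the array medians of 9.05 to 9.15. Endoglin (Eng) was 10.54, 9.81 and 8.21 in WT and 8.29, 8.29 and 8.32 in Ets1KO. Cd34 was 12.67, 9.99 and 9.33 in WT and 6.27, 8.30 and 7.67 in Ets1KO. Some transcripts of fibroblasts and mural cells were present in both groups. Col1a2, a chain of type I collagen, lay between 12.31 and 14.44, and smooth muscle actin (Acta2) between 10.70 and 13.35. Relative to the array median, the mean of 8 smooth muscle markers was -1.13 to -0.07 in WT and -1.45 to -0.18 in Ets1KO. That of 7 pericyte markers was -1.42 to -0.48 in WT and -1.085 to -0.40 in Ets1KO. That of 13 fibroblast markers was 1.09 to 1.56 in WT and 0.39 to 1.25 in Ets1KO. As these are bulk RNA samples, fewer cells of a type and less RNA per cell cannot be told apart.

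Of 18824 probe sets, 1 passed limma's test at an adjusted p below 0.05, which is 0.00531% of those tested. It belongs to Rnf130, a RING-type E3 ubiquitin ligase of the Goliath family, and it was lower in Ets1KO. At an unadjusted p below 0.05 there were 1734 probe sets (9.21%), and 929 genes (8.43%) by their brightest probe set. Counting genes by their brightest probe set, 1000 (9.08%) had every Ets1KO array below every WT array and 972 (8.82%) had every Ets1KO array above. The values that follow are therefore measurements of a comparison in which a single gene passed the test, and genes other than Rnf130 are given by their values.

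The promoter sequences of 3 of the lower genes are shown first, because ETS proteins bind at GGAA. They are Rnf130, as the gene that passed the test, Sema3e, whose 3 probe sets were all lower, and Cd34, an endothelial surface marker. They were chosen after their values were seen. Each is the 250 bases before the annotated start of the gene, 5' to 3' on the strand of the gene, from RefSeq on the mouse build GRCm38.p6. Capitals mark the ETS core, GGAA on the printed strand or TTCC where GGAA is on the other strand.
Rnf130, chr11:50025081-50025330, plus strand: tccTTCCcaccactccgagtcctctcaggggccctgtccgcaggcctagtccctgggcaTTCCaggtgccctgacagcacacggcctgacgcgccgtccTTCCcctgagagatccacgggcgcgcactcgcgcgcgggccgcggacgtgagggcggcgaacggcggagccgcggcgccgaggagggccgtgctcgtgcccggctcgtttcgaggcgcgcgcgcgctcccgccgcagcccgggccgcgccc
Sema3e, chr5:14025026-14025275, plus strand: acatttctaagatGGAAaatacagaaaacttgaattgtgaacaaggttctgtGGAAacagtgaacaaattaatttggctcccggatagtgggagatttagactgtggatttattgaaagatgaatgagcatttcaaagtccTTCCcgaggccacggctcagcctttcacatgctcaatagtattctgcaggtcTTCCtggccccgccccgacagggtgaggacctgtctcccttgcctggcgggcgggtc
Cd34, chr1:194938571-194938820, plus strand: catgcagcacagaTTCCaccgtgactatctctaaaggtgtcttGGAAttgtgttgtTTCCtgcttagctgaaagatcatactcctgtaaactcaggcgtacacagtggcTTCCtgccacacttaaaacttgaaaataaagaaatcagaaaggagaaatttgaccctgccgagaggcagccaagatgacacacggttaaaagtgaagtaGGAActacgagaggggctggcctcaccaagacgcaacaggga
The Rnf130 window holds 3 cores, all on the other strand, and the nearest begins 151 bases before the start. The Sema3e window holds 4 cores and the Cd34 window 5. Across all 32851 windows of the promoter table the median was 3 and the upper quartile 4. The Rnf130 count thus lay at the median, that of Sema3e at the upper quartile and that of Cd34 above it. The longer ETS motif CNGGAAGT, which contains the core, was searched on both strands and was in none of the 3. It was in 0 of the 16 named lower genes that matched the table (of 22 named), in 1 of 17 named higher genes (of 21 named) and in 12.3% of the 8921 measured genes that matched. Among genes whose groups did not overlap, the motif was in 10.1% of the lower genes and 13.6% of the higher ones. A window without these letters says only that they are not in it.

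The deleted gene was read on 4 probe sets, and all 4 had lower values in every Ets1KO array than in any WT array. On the brightest, 1452163_at, the WT arrays read 10.26, 9.84 and 10.06, and the Ets1KO arrays read 8.31, 8.76 and 9.17. The difference was -1.31 (SE 0.23), with a limma adjusted p of 0.2015 over all probe sets and an exact permutation p of 0.1 (two-sided), the smallest that 3 against 3 arrays can give. Its lowest Ets1KO array was replicate 1 and its highest replicate 3. The other 3 probe sets differed by -1.22, -0.70 and -0.50. Signal therefore remained on every Ets1 probe set in Ets1KO, and whether the probes lie outside the deleted part was not tested. Against Ets2KO, labelled Ets1+/+, Ets1KO differed by -0.90 on 1452163_at and -0.94 on 1426725_s_at (limma adjusted p = 0.07189 and 0.06002). On 1422028_a_at and 1422027_a_at it differed by only -0.06 and 0.04 (limma adjusted p = 0.926 and 0.9438). On those 2 probe sets Ets2KO thus read about as low as Ets1KO. Ets2 read 9.72, 10.01 and 10.70 in WT and 10.28, 10.37 and 10.54 in Ets1KO, a difference of 0.25 (SE 0.38, limma adjusted p = 0.873), with overlapping groups.

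In the arrays labelled DKO, which carry the same Ets1-/- genotype, the brightest Ets1 probe set read 10.02 and 10.29, as high as in WT. The Ets2KO arrays read 9.50, 9.55 and 9.88. The difference between DKO and Ets2KO was thus 0.51 where that between Ets1KO and WT was -1.31, and the interaction of 1.82 (SE 0.34) passed limma's test (adjusted p = 0.003259). On this probe set the Ets1 reading thus goes with the labels in the Ets1KO arrays and against them in the arrays labelled DKO. The other probe sets differ in this. DKO minus Ets2KO was 0.26 on 1426725_s_at, 0.03 on 1422028_a_at and -1.46 on 1422027_a_at, as deposited. On 1422027_a_at the arrays labelled DKO read 6.49 and 7.05 against 8.08 to 8.32 in Ets2KO, which is the direction of the labels. The arrays labelled DKO also have lower medians, at 8.30 and 8.29 against 9.06 to 9.08 in Ets2KO. Relative to array medians the 3 differences were 1.03, 0.81 and -0.68 (limma adjusted p = 0.01311, 0.0655 and 0.07303). Values from the arrays labelled DKO are read with that in view.

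Rnf130 separated the groups most firmly. On probe set 1429265_a_at the WT arrays read 10.95, 10.23 and 10.55, and the Ets1KO arrays read 6.82, 6.85 and 7.34. The 6 arrays form groups that lie far apart, with a difference of -3.58 (SE 0.25, limma adjusted p = 0.002742). The Ets2KO arrays read 11.01, 11.02 and 11.66, as high as or higher than WT, and the arrays labelled DKO read 8.15 and 7.87. The 3 Ets1KO arrays and both arrays labelled DKO thus lay below the 6 WT and Ets2KO arrays, although the arrays labelled DKO had Ets1 at the WT level on its brightest probe set. Against Ets2KO the Ets1KO arrays were lower by a log2 difference of -4.23 (SE 0.25, limma adjusted p = 0.0006139). A second Rnf130 probe set, 1440941_at, read 7.34 to 7.47 in WT and 7.25 to 7.37 in Ets1KO and differed by -0.09, so the 2 probe sets disagree. Fitted on the 6 arrays alone, the Rnf130 adjusted p was 0.0861 and no probe set passed.

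**Figure D1:**
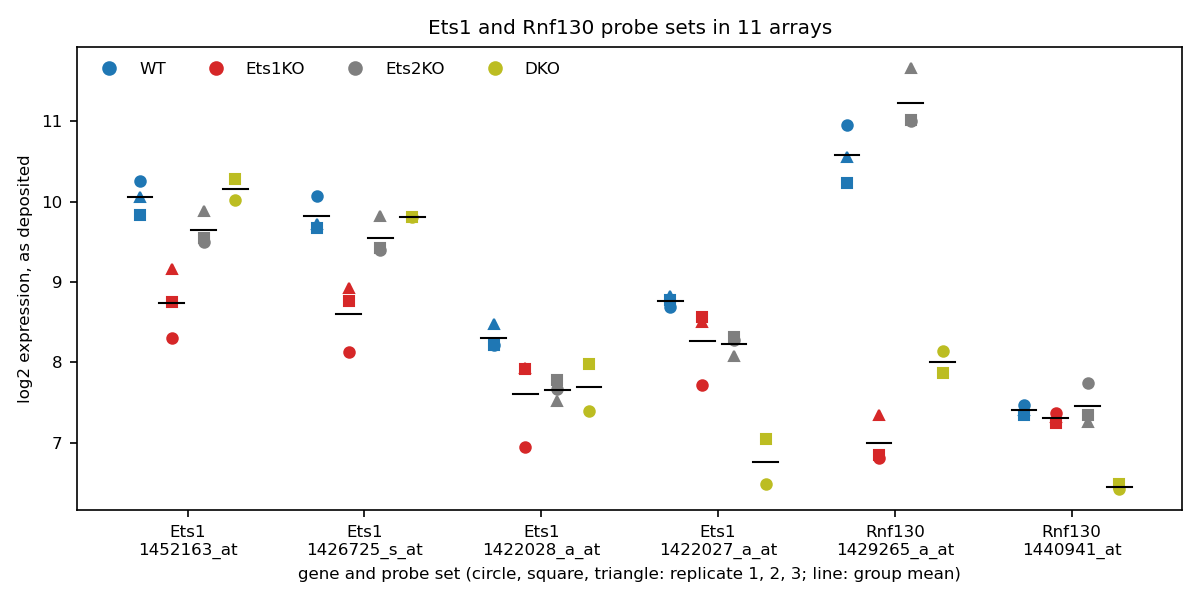
Log2 expression of 4 Ets1 and 2 Rnf130 probe sets (x axis) in each array (points, with shapes for replicates) of 4 groups (colours), with the group mean as a line. Ets1 was lower in Ets1KO than in WT on 4 of 4 probe sets, and Rnf130 1429265_a_at was at 6.82 to 7.34 in Ets1KO against 10.23 to 10.95 in WT, while the other Rnf130 probe set lay at 7.25 to 7.47 in both.

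Ligases related to Rnf130 were listed as a family. Of 10 measured, 8 had a difference below 0 (all genes 47.8%) and 4 were lower without overlap (all genes 9.08%). The test was passed by 1, Rnf130 itself. The list was built around Rnf130 and each of these counts includes it, so they do not stand apart from its result. The family median was -0.29. Rnf128, also called GRAIL and known in T cell anergy, read 7.94, 6.85 and 6.28 in WT and 5.17, 4.97 and 5.16 in Ets1KO (difference -1.93, SE 0.56, limma adjusted p = 0.42). Rnf11 differed by -0.71. Rnf13 differed by -0.01.

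The 9 genes that followed Rnf130 by p-value all had a limma adjusted p of 0.083, each on its probe set of smallest p, which for Ildr2, Ociad2 and Nsmf is not the brightest. Lower in Ets1KO were Galnt18, a transferase that starts O-linked glycosylation, Sema3e, the semaphorin that binds plexin D1 and patterns vessels, Nsg1, an endosomal protein best known from neurons, and Pde10a, a cyclic nucleotide phosphodiesterase. Galnt18 read 9.84, 8.66 and 8.97 in WT and 5.73, 5.59 and 5.76 in Ets1KO, a difference of -3.46 (SE 0.45). Sema3e read 9.09, 7.77 and 9.80 against 5.54, 5.67 and 5.50, a difference of -3.31 (SE 0.46). For both genes the Ets1KO arrays lay close together, while WT replicate 2 was the lowest of the WT arrays. Nsg1 differed by -1.32 (SE 0.17) and Pde10a by -0.96 (SE 0.13).

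Higher in Ets1KO were Ildr2, Prelp, Ociad2, Rhoj and Nsmf. Ildr2, an immunoglobulin-like membrane protein, read 6.75, 6.29 and 7.03 in WT and 10.85, 9.78 and 9.96 in Ets1KO on 1436894_at, a difference of 3.51 (SE 0.46). Its other probe sets differed by 2.55 and, on the brightest, by 1.77 (SE 0.58, limma adjusted p = 0.46). Prelp, a leucine-rich proteoglycan that anchors basement membranes, read 7.87, 7.97 and 7.45 against 10.99, 10.12 and 9.62, a difference of 2.48 (SE 0.30), and its other probe set differed by 2.96. Rhoj, which acts in vessel growth, read 10.18, 10.64 and 10.02 against 11.67, 11.64 and 11.32. Ociad2 differed by 1.46 (SE 0.17) and by 1.39 on its other probe set. Nsmf differed by 1.07 (SE 0.15), and its 2 other probe sets by 1.25 and 0.27.

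Genes were also named by size, as the 12 largest differences in each direction among genes without overlap whose higher group mean lay above the median of all genes. Sfrp2, a secreted modulator of Wnt signals, read 8.63, 12.96 and 8.82 in WT and 4.32, 4.33 and 4.73 in Ets1KO. Its difference of -5.68 had an SE of 1.75, since WT replicate 2 lay far above the other WT arrays. Grb10, an adaptor that dampens insulin receptor signalling, read 10.43, 12.75 and 9.82 against 5.02, 5.01 and 6.09 (difference -5.63, SE 0.98). Thbd, thrombomodulin, the endothelial thrombin receptor that starts the protein C pathway, read 11.19, 8.78 and 10.37 against 5.29, 5.12 and 4.78 (difference -5.05, SE 0.96). Angptl4, a secreted inhibitor of lipoprotein lipase, read 12.06, 11.39 and 12.87 against 9.33, 8.56 and 8.88 (difference -3.19, SE 0.49, limma adjusted p = 0.13). These 4 genes had no Ets1KO array within 2 log2 units of the lowest WT array.

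Gas6, a ligand of the TAM receptor kinases, differed by -3.31, with 11.32, 11.42 and 10.26 in WT and 6.93, 8.37 and 7.77 in Ets1KO. The p38 kinase Mapk13 differed by -3.43, the adhesion molecule L1cam by -3.30, and Tmem45a by -3.12. Podoplanin (Pdpn), a glycoprotein of lymphatic endothelium and of fibroblasts and mesothelium, differed by -3.68 with the groups barely apart, since WT replicate 3 read 6.95 and Ets1KO replicate 2 read 6.92. Fabp4, a fatty acid carrier of adipocytes and capillary endothelium, differed by -3.40. Cd34, a sialomucin of endothelial and progenitor cells, differed by -3.25 and read 12.67, 9.99 and 9.33 in WT against 6.27, 8.30 and 7.67 in Ets1KO. Apart from Rnf130, these genes had limma adjusted p-values from 0.13 to 0.49.

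Among the 12 largest positive differences chosen in the same way, Krt19, a keratin of simple epithelia and mesothelium, read 7.90, 11.63 and 12.23 in WT and 14.28, 13.98 and 13.70 in Ets1KO (difference 3.39, SE 1.17). WT replicate 1 was far below the other WT arrays for this gene. Mtm1, a phosphoinositide phosphatase, read 5.99, 6.59 and 8.27 against 9.80, 10.46 and 10.71 (difference 3.37, SE 0.70), and of its 2 other probe sets one differed by 3.65 and the other by 0.02. Igfbp3, a carrier of insulin-like growth factors, differed by 3.01 on both probe sets. Anxa8, a calcium-dependent phospholipid-binding protein, read 9.25, 9.90 and 10.16 against 13.98, 11.97 and 11.96 (difference 2.87, SE 0.77).

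The others were Rab6b (2.92), a GTPase of Golgi traffic, Plac8 (2.84), Lbp (2.64), the carrier of bacterial lipopolysaccharide, Dock8 (2.60), an exchange factor for Cdc42, Mef2c (2.52), Wfdc3 (2.42) and the phosphatase Ptpn13 (2.34), each given as its log2 difference. Mef2c, a MADS-box transcription factor of endothelium and muscle, read 6.20, 8.73 and 6.10 in WT and 9.45, 9.61 and 9.54 in Ets1KO, with WT replicate 2 nearest to the Ets1KO arrays. These genes had limma adjusted p-values from 0.08 to 0.53.

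**Figure D2:**
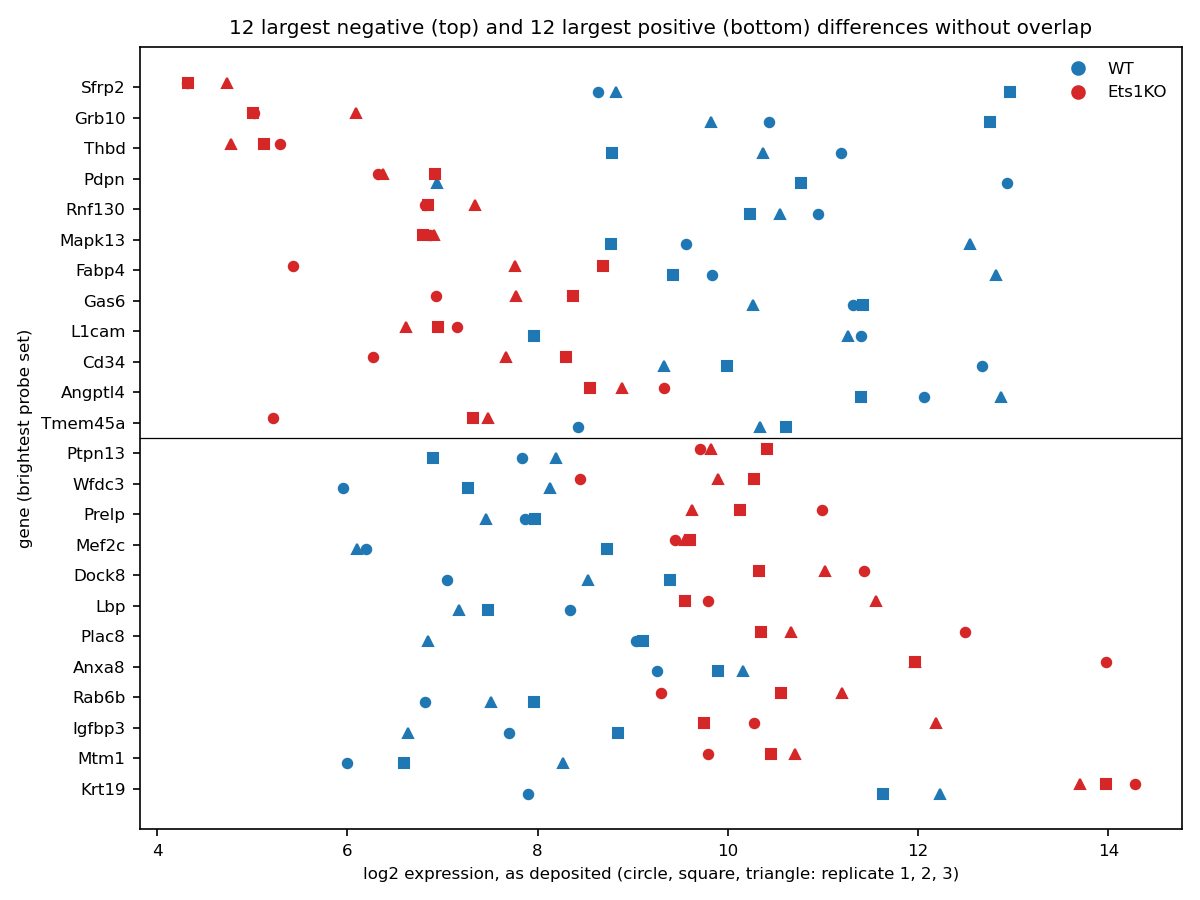
Log2 expression (x axis) of the brightest probe set of 24 genes without overlap and with the higher group mean above the median of all genes (y axis) in the 3 WT and 3 Ets1KO arrays, 1 point each with shapes for replicates; the line divides negative from positive differences. The groups lie apart for each gene by construction, and the WT points spread over several log2 units for Sfrp2, Pdpn and Krt19.

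Where several probe sets read 1 gene, their agreement was counted. Of 1926 genes with 3 or more probe sets, 36 (1.87%) had every probe set lower without overlap and 66 (3.43%) every probe set higher. Without WT replicate 3 the counts were 111 and 195, and without each of the other arrays they were 51 to 73 and 93 to 124. Leaving out an array can only keep or raise a count of genes without overlap, so these counts do not test it. Trps1, a GATA-type repressor, was lower on 4 of 4 probe sets, by -2.51 to -3.75, and 1457445_at, its brightest, read 8.73, 8.18 and 10.72 in WT and 5.07, 5.94 and 6.33 in Ets1KO. Sema3e was lower on 3 of 3, by -3.31 to -4.16. On each of them the Ets2KO arrays also lay below every WT array, at 6.49 to 7.13 on 1427673_a_at. Cd55, which protects cells from complement, was lower on 3 of 3, by -2.51 to -3.28, with the groups close together at WT replicate 3 and Ets1KO replicate 1 (6.23 and 6.09 on 1418762_at).

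Tgfbi, a matrix protein induced by TGF-beta, was lower on 4 of 4 by -1.42 to -1.60, with Ets1KO replicate 1 close to WT. Ptges, which makes prostaglandin E2, was lower on 3 of 3 by -1.22 to -1.79. WT replicate 1 was its highest array. Fam107b (-1.35 to -1.59), Grb10 (-1.17 to -5.63) and the adhesion molecule Nectin3 (-1.08 to -1.24) were also lower on 3 of 3. On the higher side, Mef2c stood on 5 of 5 probe sets by 1.75 to 2.52 and Tgm2, tissue transglutaminase that crosslinks matrix proteins, on 5 of 5 by 1.24 to 1.56. The brightest Tgm2 probe set read 9.36, 9.80 and 10.04 in WT and 11.01, 11.35 and 11.51 in Ets1KO. Ildr2 (1.77 to 3.51), Rab6b (1.72 to 2.92), Ermp1 (1.54 to 1.65), Tmem183a (1.39 to 1.70), Ppp1r9a (1.26 to 1.80) and Mfsd6 (1.07 to 1.52) were higher on all of theirs. Ets1KO replicate 1 was close to WT for Tmem183a, at 11.40 against 11.31 to 11.34 on 1417200_at. It was also close for Ppp1r9a, at 7.18 against 7.03 in the highest WT array on 1440285_at. None of these 16 genes passed limma's test on any probe set.

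Lists of pathway genes were described by their members. Inflammatory mediators of the vessel wall had the lowest median of the pathway lists. Of 13 measured chemokines, cytokines and adhesion molecules, 11 had a difference below 0 (all genes 47.8%), 2 were lower without overlap (all genes 9.08%) and 0 passed the test, with a median of -1.37 against 0.01 over all genes. Ccl2, which draws monocytes, read 14.19, 12.86 and 8.28 in WT and 6.48, 7.42 and 8.65 in Ets1KO (difference -4.26, SE 1.37, limma adjusted p = 0.455). Ccl7, a related chemokine, read 11.84, 10.04 and 6.72 against 5.85, 6.12 and 7.26. The first 2 WT arrays were high and WT replicate 3 lay within the Ets1KO range for both. The same array was the lowest WT array for P-selectin (Selp, 6.14) and for the cytokine Lif (6.32). Ccl5 and Csf3 were the members without overlap, at differences of -1.53 and -1.37. Without WT replicate 1 the list median was -0.55 and without WT replicate 3 it was -1.96. The adhesion molecule Vcam1 read 13.09, 13.76 and 8.80 in WT and 12.29 to 13.84 in Ets1KO.

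Regulators of NF-kappa-B had a median of -0.22 over 16 measured genes, with 12 below 0 (all genes 47.8%), 4 lower and 1 higher without overlap (all genes 9.08% and 8.82%), and 0 called. Nfkbiz, a nuclear IkB protein that opens secondary response genes, read 11.64, 12.05 and 10.99 in WT and 10.002, 9.87 and 9.31 in Ets1KO (difference -1.83, SE 0.34, limma adjusted p = 0.209). Bcl3, another nuclear IkB protein, read 9.49, 9.18 and 8.41 against 7.70, 7.28 and 7.78 (difference -1.44). Tnfaip2 differed by -2.00 and Relb by -0.95. Rela and Nfkb2 differed by -0.14 and -0.04. The list median was -0.09 without WT replicate 2 and -0.33 without WT replicate 3.

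Immediate-early genes, which respond within minutes to growth factors and stress, had a median of -0.36 over 22 measured, with 16 below 0 (all genes 47.8%), 5 lower and 0 higher without overlap (all genes 9.08% and 8.82%), and 0 called. Dusp1, a phosphatase that shuts off MAP kinases, read 10.41, 10.20 and 10.98 in WT and 8.74, 9.62 and 8.30 in Ets1KO (difference -1.64, SE 0.67). Fosl2, a partner of Jun, read 10.36, 10.75 and 10.11 against 9.18, 9.52 and 9.59 (difference -0.98). Atf3, Nr4a2 and Maff were the other 3 without overlap, and Btg2 differed by 1.12 with overlapping groups. Without Ets1KO replicate 1 the list median was -0.17. Of 21 interferon-stimulated genes, 16 were below 0 but 0 were lower and 1 was higher without overlap (all genes 9.08% and 8.82%), with a median of -0.24 (-0.45 without WT replicate 3). Gbp2 differed by -1.61 and Rtp4 by -1.30.

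Of 21 matrix proteases and inhibitors, 14 were below 0, 5 lower and 1 higher without overlap (all genes 9.08% and 8.82%), and 0 called. Their median was -0.26, and it was 0.02 without WT replicate 1 and -0.51 without WT replicate 3. Ctsl, a lysosomal protease, read 13.78, 13.40 and 13.39 in WT and 12.60, 13.00 and 12.62 in Ets1KO (difference -0.78, SE 0.22). Adamts5 (-1.61), Mmp3 (-1.41) and Adamts1 (-1.36) had larger differences with SEs from 1.18 to 1.61. Mmp2, the gelatinase, differed by 0.75. Of 20 basement membrane and integrin genes, 13 were below 0, 3 lower without overlap (all genes 9.08%) and 0 called. Their median was -0.18, and with 1 array left out it ran from -0.41 (WT replicate 3 omitted) to -0.06 (WT replicate 2 omitted). Lama4, the laminin chain of endothelial basement membranes, read 11.70, 10.30 and 10.40 against 10.34, 8.11 and 7.90 (difference -2.02, SE 0.76), so that Ets1KO replicate 1 lay within the WT range.

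Genes that define endothelium lay on both sides of 0. Of 9 measured of 28 listed, 6 were below 0, 1 was lower and 1 higher without overlap (all genes 9.08% and 8.82%), and 0 were called. Podxl, a relative of Cd34 at the luminal surface, had higher values while Cd34 had lower ones, at 8.35, 8.65 and 10.29 in WT and 11.20, 10.89 and 11.12 in Ets1KO (difference 1.97, SE 0.85). Angiogenic genes had a median of 0.04 over 17 measured (-0.21 without WT replicate 3 and 0.17 without Ets1KO replicate 3), with 3 lower without overlap (all genes 9.08%). These were Angpt1, the ligand of Tie2 (-2.94), Adm, adrenomedullin (-2.36), and Apln, apelin (-0.59). Esm1, a VEGF-induced proteoglycan of tip cells, read 9.89, 12.58 and 12.02 in WT and 3.02, 11.55 and 11.94 in Ets1KO, so that its difference of -2.65 rested on Ets1KO replicate 1.

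In the Notch pathway, 2 of 14 measured genes were lower without overlap (all genes 9.08%) and the median was -0.02 (-0.12 without WT replicate 3 and 0.01 without Ets1KO replicate 3). Notch1, the receptor that specifies arterial fate, read 9.71, 9.45 and 9.56 in WT and 8.81, 8.44 and 8.63 in Ets1KO (difference -0.95, SE 0.18, limma adjusted p = 0.23). Dll1, a Notch ligand, differed by -1.27. The target genes Hes1 and Hey1 differed by 0.72 and -0.01 with overlapping groups. In the TGF-beta and BMP pathway 2 of 24 were lower and 3 higher without overlap, where all genes gave 9.08% and 8.82% (median -0.09, with -0.18 without Ets1KO replicate 1 and -0.003 without Ets1KO replicate 2). Id2, a BMP target that blocks helix-loop-helix factors, read 9.18, 9.83 and 9.81 against 11.79, 10.99 and 10.54 (difference 1.5045, SE 0.33), and Tgfbr3, a co-receptor, read 12.15, 11.53 and 11.87 against 11.06, 10.996 and 11.07 (difference -0.81).

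Among 14 measured ETS factors the deleted gene had the largest difference, and the median was 0.03 (3 lower and 2 higher without overlap, all genes 9.08% and 8.82%). Etv4 differed by 0.56 and Etv5 by -0.40. Genes reported as Ets1 targets in vascular cells had a median of 0.02 over 14 measured, 7 on each side of 0, with 1 lower without overlap (all genes 9.08%). That median was -0.46 without WT replicate 3 and -0.30 without Ets1KO replicate 2. Survival and death regulators (22 measured) had a median of 0.00, cell cycle genes (28 measured) 0.01, cytosolic ribosomal protein genes (17 measured) 0.02, hypoxia and glycolysis genes (20 measured) -0.10, cholesterol synthesis genes (15 measured) -0.11 and p53-induced genes (22 measured) 0.13. Called members numbered 0 in each of these lists. With 1 array left out the p53-induced median ran from -0.48 (without WT replicate 3) to 0.40 (without WT replicate 2), the cholesterol median from -0.34 (without Ets1KO replicate 2) to 0.14 (without WT replicate 2), the hypoxia median from -0.22 (without Ets1KO replicate 2) to 0.13 (without Ets1KO replicate 1) and the cell cycle median from -0.18 (without Ets1KO replicate 3) to 0.11 (without Ets1KO replicate 2). Within the hypoxia list Car9, a carbonic anhydrase, read 6.88, 9.33 and 9.66 in WT and 6.18, 6.74 and 6.02 in Ets1KO. Bcl2, an inhibitor of mitochondrial apoptosis, differed by 0.94, and Bik by 0.57 without overlap.

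Markers of other cells were read beside these lists. All 7 measured adipocyte markers of 11 listed had differences below 0 (all genes 47.8%), with a median of -2.37. Of these, 3 were lower without overlap (all genes 9.08%). The values rested on WT replicate 3, in which adiponectin (Adipoq) read 10.89 against 3.98 and 4.01 in the other WT arrays and 3.63 to 3.80 in Ets1KO. Lipoprotein lipase (Lpl) read 12.44 there against 7.10 and 7.44. Without that array the median was -0.36. The mean of the 7 markers, relative to the array median, was -2.39 to 1.23 in WT and -3.08 to -2.81 in Ets1KO. Fabp4, among the largest differences, is on this list, and read 9.83, 9.43 and 12.82 in WT and 5.43, 8.68 and 7.77 in Ets1KO. Their part in the result was not tested.

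Of the epithelial and mesothelial markers, Krt19 and mesothelin (Msln) were high in all 3 Ets1KO arrays, while Epcam, Krt8 and Upk1b differed by -0.22, 0.15 and -0.01. Msln read 5.06, 5.90 and 10.09 in WT and 9.91, 10.36 and 10.06 in Ets1KO, so WT replicate 3 stood with Ets1KO. The mean of the 5 measured markers, relative to the array median, was -1.87 to 0.06 in WT and 0.04 to 0.44 in Ets1KO, and their part in the results was not tested. Fibroblast markers had a median of -0.11 over 13 measured (-0.71 without Ets1KO replicate 3), with Fbln1 at -2.61 and Col1a2 at 0.97. Smooth muscle markers had a median of 0.15 over 8, pericyte markers 0.09 over 7 (0.56 without WT replicate 2) and macrophage and leukocyte markers -0.13 over 6. Rgs5, a pericyte marker, read 7.45, 7.90 and 6.97 in WT and 6.11, 11.71 and 11.13 in Ets1KO, so the Ets1KO arrays differed among themselves. Pdpn was the only lymphatic endothelial marker measured.

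**Figure D3:**
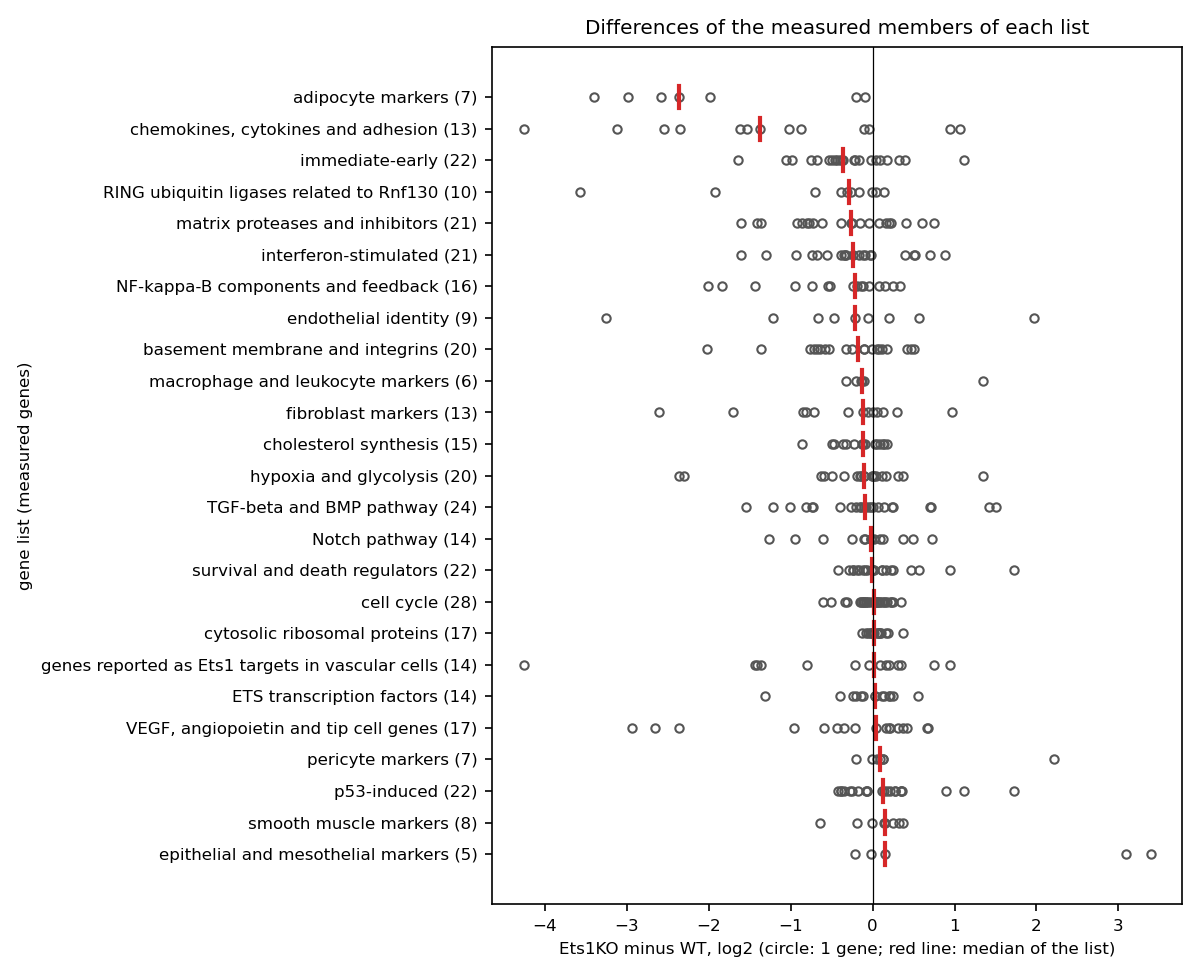
Log2 difference between Ets1KO and WT (x axis) of each measured member (circles) of 25 gene lists with 5 or more measured genes (y axis, number measured in brackets), with the list median in red. The medians lie between -0.36 and 0.15 for all lists but the adipocyte markers (-2.37) and the chemokines, cytokines and adhesion genes (-1.37), and members spread on both sides of 0 in most lists.

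Gene position was examined after the differences had been seen, using the gene order of the RefSeq annotation of GRCm38.p6. Chromosomes differed in their medians, and those with medians farthest from 0 are named here. On chromosome 4, 76.6% of genes had a difference below 0 (all genes 47.8%), with a median of -0.17. There 19.1% were lower against 1.18% higher without overlap (all genes 9.08% and 8.82%). Chromosomes 16 (-0.14), 9 (-0.13) and 5 (-0.12) also had negative medians. Chromosomes 8 and 18 (0.18 each) and 14 (0.16) had positive ones. On chromosome 18, 22.3% of genes were higher against 4.02% lower without overlap (all genes 8.82% and 9.08%). Ets1 lies on chromosome 9. Relative to each array's own level, the per-chromosome median ranged widest in WT replicate 3, from -0.30 on chromosome 1 to 0.18 on chromosome 4, and in Ets1KO replicate 1, which read 0.33 on chromosome 1. With each array set relative to its chromosome medians, Rnf130 and Prelp were the 2 genes that passed limma's test.

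**Figure D4:**
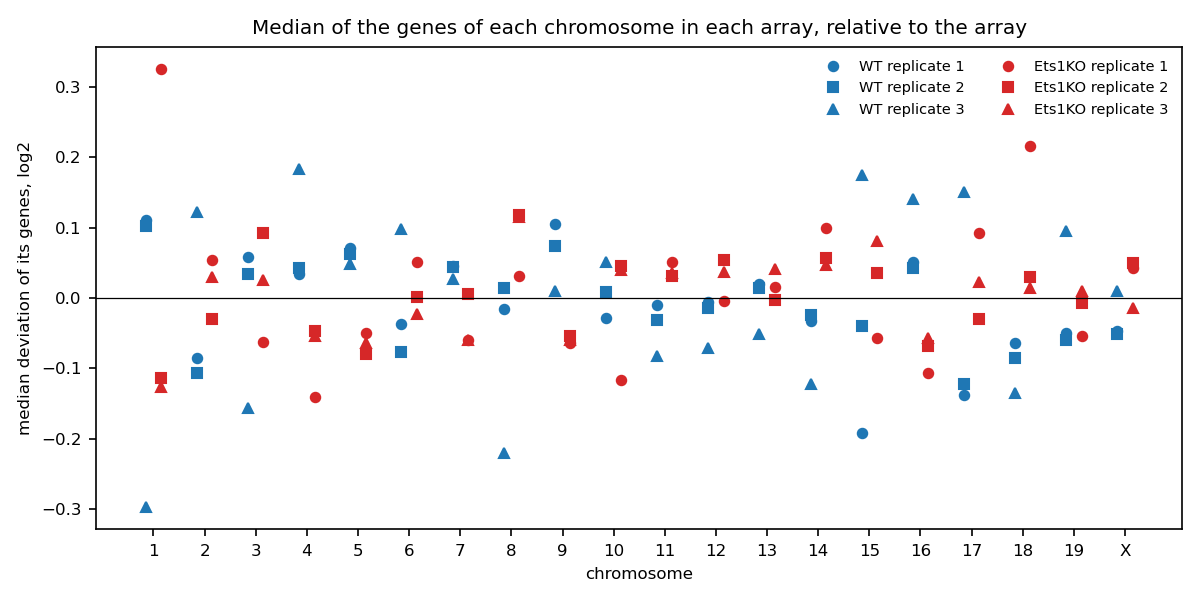
Median deviation of the genes of each chromosome (x axis) in each WT and Ets1KO array (points, log2, y axis), relative to the array. The 3 Ets1KO points lie below the 3 WT points on chromosomes 4, 5, 7, 9 and 16 and above them on chromosomes 8, 11, 12, 14 and 18, while on chromosome 1 Ets1KO replicate 1 reads 0.33 and WT replicate 3 reads -0.30.

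One run of neighbouring genes on chromosome 1 split the Ets1KO arrays. From Mdm4, an inhibitor of p53, to Rabif, a Rab-interacting factor, 16 genes were measured. In 9 of them both Ets1KO replicates 2 and 3 lay above the 4 other arrays. The mean of these 2 replicates was also more than 1 log2 unit above the WT mean. Klhl12, an adaptor of a cullin ubiquitin ligase, read 8.79, 8.69 and 8.92 in WT, 8.99 in Ets1KO replicate 1, and 11.64 and 11.34 in replicates 2 and 3. Adipor1, an adiponectin receptor, read 11.79, 11.61 and 11.49 in WT, 11.99 in replicate 1, and 13.54 and 13.36. Snrpe, a spliceosome protein, read 12.84, 12.94 and 12.93 in WT, 13.03 in replicate 1, and 14.19 in both others. For these genes replicate 1 lay above the highest WT array, but far closer to it than replicates 2 and 3 did.

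Mdm4, Ppp1r15b, Zbed6, Tmem183a, Cyb5r1 and Rabif made up the rest of the 9, with replicates 2 and 3 above the WT mean by 1.96 to 3.01. Across all 11015 genes, 119 (1.08%) showed this pattern, 9 of them in this run. The run was chosen after the data were seen, and its first and last genes showed the pattern. The 10 measured genes before Mdm4 and the 8 after Rabif, among them Rbbp5, Tmem81, Kdm5b and Timm17a, did not. The Ets2KO arrays read 8.74 to 8.97 for Klhl12 and 11.59 to 11.76 for Adipor1, as in WT. The arrays labelled DKO read 8.46 and 8.18 for Klhl12 and 11.40 and 11.72 for Adipor1. For Cyb5r1 they read 11.35 and 11.22, above every WT and Ets2KO array. Over the 9 genes with the pattern, DKO minus Ets2KO relative to array medians ran from -0.51 (Mdm4) to 1.73 (Cyb5r1, limma adjusted p = 0.0356). Prelp, in the same run, was high in all 3 Ets1KO arrays. Without Ets1KO replicate 1, 18 probe sets passed limma's test. Prelp and 8 of the 9 genes with the pattern were among them (Adipor1, Cyb5r1, Klhl12, Ppp1r15b, Rabif, Snrpe, Tmem183a and Zbed6). That fit leaves out the array whose level helped to define the pattern, so it is no separate test of it.

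The genes next to Ets1 itself were also read. Aplp2, Zbtb44, Jam3 and Adamts8 had every Ets1KO array below every WT array, by -0.41, -0.31, -0.40 and -0.17. Arhgap32, Dcps, Fam118b and Rpusd4 had every Ets1KO array above, by 0.34, 0.52, 0.34 and 0.66. Srpr and St3gal4 differed by 0.03 and 0.07. Kirrel3, the next measured gene on one side, differed by 1.43 (SE 0.82) with overlapping groups. Of the 16 measured neighbours, 8 thus had groups without overlap (all genes 17.9%), and none passed the test.

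By their labels, the arrays labelled DKO and Ets2KO also differ in the Ets1 genotype, and they share no array with Ets1KO or WT. The Ets1 reading on the brightest probe set goes against this, with a difference of 0.51 as deposited and 1.29 relative to array medians. On 1422027_a_at the differences were -1.46 and -0.68, so the probe sets disagree and the values below are by label only. Relative to array medians, the difference had the same sign as between Ets1KO and WT in 9 of the 12 genes with the largest negative differences (42.0% of all genes below 0). The same held in 10 of the 12 with the largest positive ones (64.4% of all genes above 0) and in 8 of the 10 of smallest p (53.7% of all genes). As deposited the counts were 10 of 12, 9 of 12 and 7 of 10. The backgrounds were then 84.9%, 23.3% and 52.7%, since the arrays labelled DKO have lower medians (8.28 to 8.30). Grb10 differed by -3.68, Gas6 by -4.18 and Galnt18 by -1.81 relative to array medians. Plac8 differed by 4.08, Anxa8 by 2.91, Mef2c by 2.58 and Prelp by 1.86. Tmem45a went the other way at 2.53, as did Sfrp2 at 1.31, and Wfdc3 was near 0 at -0.08. Among the 10 of smallest p, Pde10a at 0.79 and Nsmf at -0.55 on 1449474_a_at also went the other way. On its brightest probe set Nsmf differed by 1.25. The differences of Grb10, Gas6, Galnt18, Plac8, Anxa8, Mef2c, Prelp, Tmem45a, Pde10a and Nsmf (both values) passed limma's test relative to array medians. In that test of DKO against Ets2KO, 34.6% of all probe sets passed.

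Ets1KO was last set directly against Ets2KO, where 446 of 18824 probe sets (2.37%) passed limma's test. This comparison shares the Ets1KO arrays with that against WT, so the values are given side by side. Of 45 named genes, 15 passed on their brightest probe set. Grb10 differed by -5.55 from Ets2KO and by -5.63 from WT, Gas6 by -5.17 and -3.31, Mapk13 by -4.69 and -3.43, and Trps1 by -4.21 and -3.43. On the higher side Plac8 differed by 4.59 and 2.84, Anxa8 by 4.30 and 2.87, Prelp by 2.70 and 2.48, and Tgm2 by 2.40 and 1.56. Rnf130, Nsg1, Galnt18, Rhoj, Ociad2, Wfdc3 and Ptpn13 were the other 7. For Pde10a the difference from Ets2KO was -0.04 against -0.96 from WT, and for Mtm1 it was 0.68 against 3.37. For Sema3e it was -1.23 (limma adjusted p = 0.1618) against -3.31.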

How the data were processed

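RNA from 12 samples of cultured mouse aortic endothelial cells was measured on Affymetrix arrays. The values are log2 expression per probe set as deposited, made with RMA per the submitters' processing notes; the version and genome build are not given in the sources used here. Groups were taken from titles and genotypes, which disagree with the short descriptions of the Ets1KO and Ets2KO samples. The third column labelled DKO matches the average of columns 1 and 2, within a tolerance of 1e-05, in 20521 of 20523 probe sets and was left out, leaving 11 arrays. Of the 20523 probe sets, 18824 carry 1 symbol in the platform annotation, 549 several and 1150 are unlisted. Gene IDs of 18788 probe sets were found in the RefSeq table.

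A linear model of 4 group means (limma 3.58.1, lmFit and eBayes, in R 4.3.3, 7 residual and 2.241 prior degrees of freedom) was used, with Benjamini-Hochberg adjustment over 18824 probe sets and calls at adjusted p below 0.05. A gene is read on its brightest probe set unless another is named; genes chosen by p are read on the probe set of smallest p. The number of arrays limits the precision. Replicates are biological according to the titles. Separate animals or cultures are not named, so the p-values measure the spread between these samples, which may be technical.

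Named genes are Ets1 and Ets2, called probe sets, the 10 of smallest p, the 12 largest differences in each direction without overlap and with the higher mean above the median, up to 8 genes in each direction whose 3 or more probe sets agree, and up to 4 other members per list. Members, lists and rules were chosen with earlier results of these data known. The chromosome view, the run from Mdm4 to Rabif, the values of DKO against Ets2KO and the scaling to chromosome medians were added after the data were seen. Promoters (250 bases) came from RefSeq on GRCm38.p6. The fit was tested on simulated data. Plots were made with matplotlib 3.10.9 (Python 3.11.15).

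Same-numbered WT and Ets1KO arrays had correlations of their deviations from the group means of 0.08, 0.05 and 0.10, so the numbers were not taken as pairs.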

Additional observations from a re-analysis of the deposited data

Results flagged for a closer look

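The brightest Ets1 probe set differed between 2 genetic backgrounds. Ets1KO minus WT was -1.31, and DKO minus Ets2KO was 0.51, both as deposited, although the Ets1 genotypes are the same. The interaction was 1.82 (SE 0.34) with a limma adjusted p of 0.003259, and 2.65 relative to array medians (adjusted p = 0.001479). The WT arrays read 10.26, 9.84 and 10.06, the Ets1KO arrays 8.31, 8.76 and 9.17, the Ets2KO arrays 9.50, 9.55 and 9.88, and the arrays labelled DKO 10.02 and 10.29. The probe set 1426725_s_at also differed, by 1.47 (limma adjusted p = 0.008735), while 1422028_a_at and 1422027_a_at gave 0.73 and -0.96 as deposited, with adjusted p-values of 0.1938 and 0.06292. Relative to array medians these 3 probe sets gave 2.30 (adjusted p = 0.002707), 1.56 (0.02815) and -0.13 (0.8219). A share of 36% of all probe sets had such an interaction at this threshold.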

How the results depend on the processing

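Rnf130 was called in every setting run except the fit on the 6 WT and Ets1KO arrays alone, which called 0 probe sets (1957 at an unadjusted p below 0.05). The count of called probe sets was 3 with 9 arrays, 13 with all 12 columns, 358 with array weights (190 higher, 168 lower) and 2 relative to chromosome medians, a setting chosen after seeing the data. Leaving out 1 array gave 1 to 62, with 62 without WT replicate 3, 21 without WT replicate 2 and 18 without Ets1KO replicate 1. With the replicate number as a block the count was 1, and Ets1 had an adjusted p of 0.2483; no call changed. Array weights gave Ets1 a difference of -1.2189 (adjusted p = 0.02379), and its adjusted p was 0.07957 to 0.6097 in the other settings. Ets1 ranged from -1.5221 to -1.0915 with 1 array left out.

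With 1 array left out, list medians ranged from -0.0547 to 0.0779 for ETS factors, -0.7129 to -0.0067 for fibroblast, -0.0933 to 0.5578 for pericyte, -3.6068 to -0.3569 for adipocyte and -2.4169 to -0.0142 for sex-linked genes. Genes whose 3 or more probe sets agreed numbered 51 to 111 lower and 93 to 195 higher. Leaving out an array can only keep or raise these counts from 36 and 66, so they do not test them. Relative to array medians the higher count was 43 and the ribosomal protein median -0.0318. No named gene changed the sign of a called difference, but the medians of 14 of 27 lists changed sign in at least 1 setting. Array number and, in part, WT replicate 3 limit these results. The cause of these differences was not tested.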
